A study of Homo sapiens with 12 samples.

Results

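The genes of the laminin-binding integrins and of laminin-332 form a family of 7 here: ITGB4, ITGA6, ITGA3, ITGB1, CD151, LAMA3 and LAMB3. They were taken by Ensembl identifier from a count table of 58233 genes, by a rule that names the proteins and uses no measured value, though earlier results of these data were known when it was written. All 7 passed the filter on low counts that left 15749 genes for testing.

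RNA was sequenced from MCF10-A, a non-tumour mammary epithelial cell line of human origin, in 3 derivatives labelled Addback, B4-4 and Vector. Each derivative was studied under the treatment labels EDTA and NA, with 2 libraries per combination and 12 libraries in 6 groups in all. Every library, those labelled Vector NA included, came from detached cells: per the labels' protocols, cells grown in DMEM/F12 with 5% horse serum were trypsinized and held without serum for 3 hours on plates covered with poly-HEMA, which keeps cells from attaching. EDTA is a chelator of divalent cations, which integrins need to hold their ligands. The series concerns integrin alpha 6 beta 4. The sources used here do not give the meaning of NA, the dose and timing of EDTA, the way B4-4 and Addback were made, or whether each is a single clone. Whether ITGB4 itself was altered in them is therefore not known here. If it was, its calls between derivatives would follow from how they were made. The libraries of a group are called replicates without a statement that they came from separate cultures, so p-values reflect nothing beyond the spread between these libraries, and that spread may be technical.

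Integrins are pairs of an alpha and a beta chain that span the cell membrane. The alpha 6 chain (ITGA6) pairs with beta 4 (ITGB4) in hemidesmosomes, the junctions that tie the keratin filaments of basal epithelial cells to the basement membrane, and can also pair with beta 1 (ITGB1). The alpha 3 chain (ITGA3) pairs with beta 1, and the tetraspanin CD151 binds alpha 3 beta 1 and the alpha 6 integrins laterally in the membrane. Laminin-332 is the main ligand of alpha 6 beta 4 and alpha 3 beta 1 in skin and mammary gland, and its chains, among them alpha 3 (LAMA3) and beta 3 (LAMB3), are assembled in the cell before it is secreted.

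Library totals ranged from 15685376 to 22156173 counts. Levels are CPM, read counts brought to a common library size with TMM factors, differences are log2 fold changes with their SE, and a gene is called changed at an adjusted p under 0.05 in edgeR's quasi-likelihood test, with p-values adjusted by the Benjamini-Hochberg method over the 15749 genes. In bulk RNA, fewer cells of a type and less RNA per cell cannot be told apart. The basal-like mammary markers were all detected, with 7 of 7 tested and a summed level of 8864 to 15378 CPM over the 12 libraries, while of 7 luminal markers 5 were tested, with a summed level of 519 to 1042 CPM. Most of that sum was in the keratins KRT8 (169 to 575 CPM) and KRT18 (303 to 450.2 CPM), GATA3 and FOXA1 reached at most 34.5 and 14.0 CPM, and ESR1, PGR and KRT19 at most 1.23, 0.0561 and 0.354 CPM. The B4-4 NA pair was the loosest, with a biological coefficient of variation of 24.15%, against 3% to 18.84% in the other groups, and B4-4 NA 1 correlated more closely with Vector NA 1 (r = 0.9752) than with B4-4 NA 2 (r = 0.9616). All 7 members were higher in B4-4 NA 2 than in B4-4 NA 1, by 1.35-fold (ITGA6, log2 0.43) to 2.40-fold (LAMB3, log2 1.27). Of 10632 genes with at least 5 CPM, 52.4% were higher in B4-4 NA 2. Their median log2 gap was 0.02 with its sign and 0.24 in absolute size. Every result that uses B4-4 NA rests on this pair, and all 6 groups share its spread in the test, so values without these libraries are given below. Leaving out the pair, a choice made after seeing the data, or either of its libraries takes this spread out of the shared estimate. For comparisons that do not use B4-4 NA, lower p-values after these omissions are therefore not separate checks. Any omission of 1 library leaves its group with 1, which then adds no spread of its own to the test. Where a comparison uses B4-4 NA and 1 of its libraries is left out, the test holds none of the pair's spread. For those fits only the size and direction of the log2 change are to be read, and passing is not a check. Shares of all tested genes are given for the fit to all libraries and not for these omissions. Addback EDTA 2 carried another lane number in its description than the other libraries, and leaving it out ended the call of 1 member in 1 comparison, ITGA3 for EDTA in Addback (adjusted p = 0.14).

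On GRCh38 with GENCODE release 29, ITGB4 (ENSG00000132470) spans chromosome 17 from 75721328 to 75757818 on the plus strand and ITGA3 (ENSG00000005884) the same chromosome from 50055968 to 50090481. ITGA6 (ENSG00000091409) lies on chromosome 2 from 172427354 to 172506282, ITGB1 (ENSG00000150093) on chromosome 10 from 32900319 to 33005792 on the minus strand and CD151 (ENSG00000177697) on chromosome 11 from 832843 to 839831. LAMA3 (ENSG00000053747) spans chromosome 18 from 23689443 to 23956222, and LAMB3 (ENSG00000196878) spans chromosome 1 from 209614870 to 209652466 on the minus strand. Counts cover whole genes and do not separate isoforms. The exons of CD151 share 257 bases, 6.53% of their length, with POLR2L on the opposite strand, and since the sources used here give no strand setting for the counting, reads of both genes cannot be told apart there. Over the 12 libraries POLR2L held 16232 counts and CD151 43318 counts.

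Per kilobase of exon, the median level over the 12 libraries was highest for ITGB1 at 225 CPM per kilobase, followed by ITGB4 at 173, LAMB3 at 141, ITGA6 at 138 and ITGA3 at 104. LAMA3 at 54.4 and CD151 at 46.3 CPM per kilobase were the lowest. With the length of the longest transcript in place of all exons, ITGB1 stayed highest at 358 CPM per kilobase and LAMA3 was lowest at 74.9, below CD151 at 98.2. The spread across libraries was widest for ITGB4, whose highest library held 10.2 times the CPM of its lowest, and next widest for LAMB3 at 5.96 times and LAMA3 at 3.91 times. The other 4 members spanned 1.80 to 2.21 times.

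**Figure D1:**
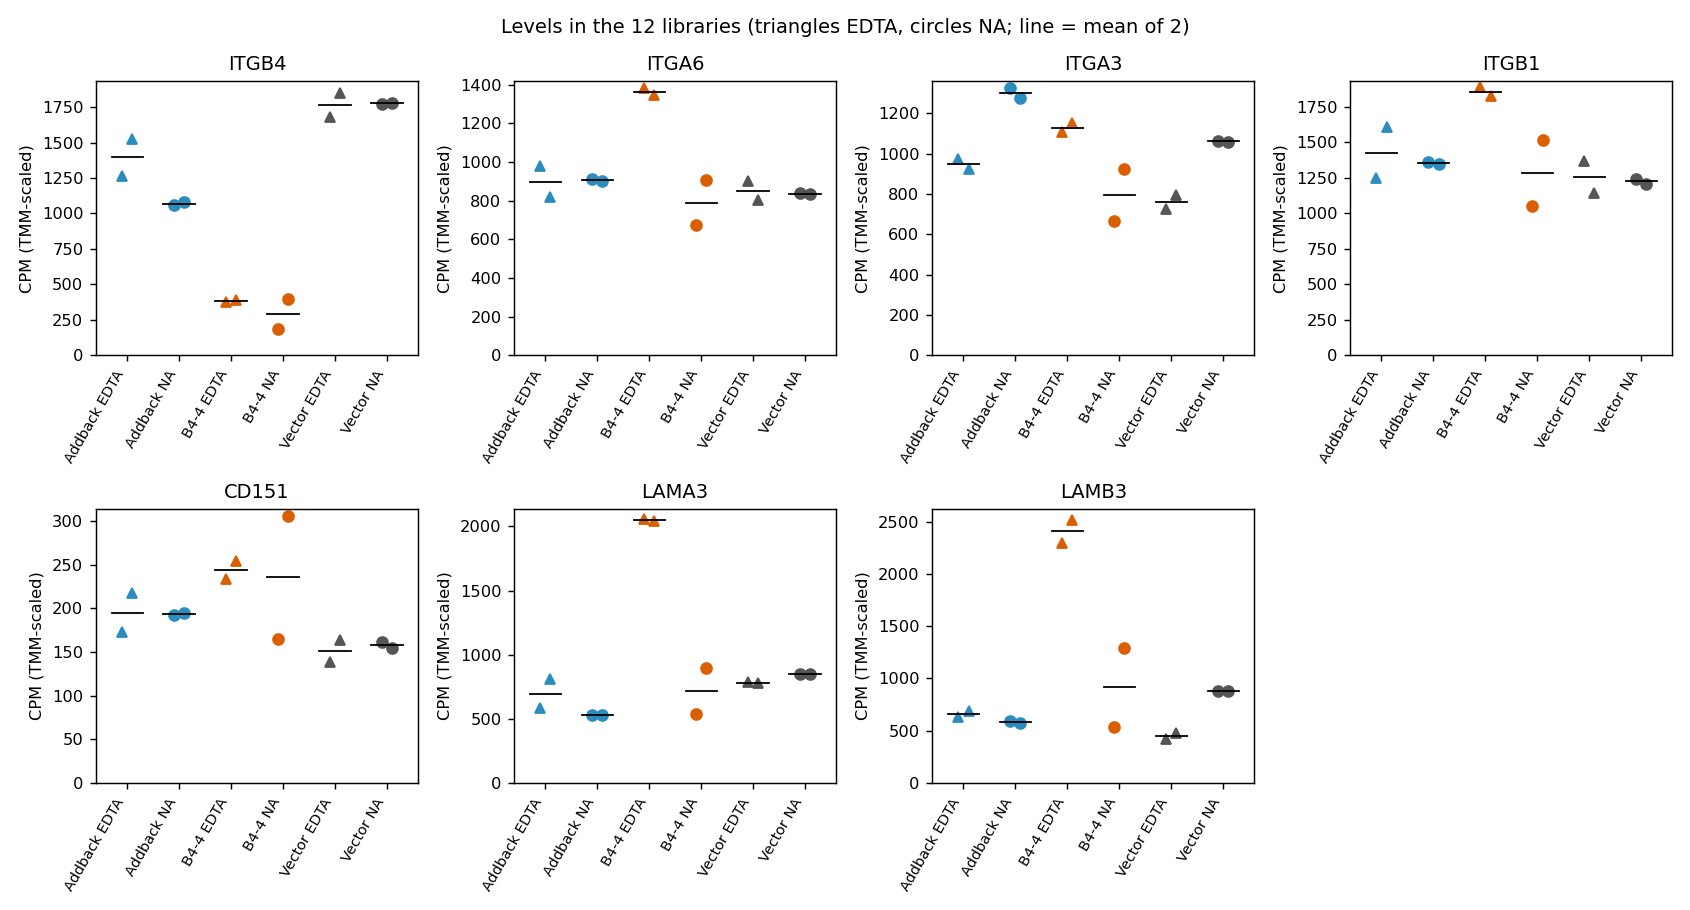
CPM of the 7 members in each of the 12 libraries, with EDTA groups as triangles, NA groups as circles and a line at the mean of the 2 libraries of a group. ITGB4 is low in B4-4 under both labels (182 to 395 CPM), while ITGA6, ITGB1, LAMA3 and LAMB3 are highest in B4-4 EDTA, and the 2 circles of B4-4 NA lie apart in every panel.

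ITGB4, the beta 4 chain, was lowest in B4-4 and intermediate in Addback. In EDTA, ITGB4 stood at 1264 and 1525 CPM in Addback, 372 and 390.0 CPM in B4-4 and 1678 and 1850.3 CPM in Vector. In NA, ITGB4 stood at 1059.7 and 1080.1 CPM in Addback, 182 and 395 CPM in B4-4 and 1775 and 1780.1 CPM in Vector. No B4-4 library reached the level of any Addback library, and no Addback library that of any Vector library. The 2 Vector groups overlapped each other, as did the 2 B4-4 groups, while both Addback EDTA libraries lay above both Addback NA libraries. B4-4 was lower than Vector in EDTA, by a log2 change of -2.21 (SE 0.30, adjusted p = 0.000544), and in NA, at -2.62 (SE 0.30, adjusted p = 0.00334). Addback was higher than B4-4 in EDTA at 1.87 (SE 0.29, adjusted p = 0.00471) and in NA at 1.89 (SE 0.29, adjusted p = 0.00283), so that the mean in Addback was 1395 ± 184 CPM in EDTA and 1069.9 ± 14.4 CPM in NA, against 1764 ± 122 and 1777 ± 3.95 CPM in Vector (SD, n = 2 each). Addback against Vector was -0.34 (adjusted p = 0.404) in EDTA and -0.73 (adjusted p = 0.0768) in NA. Neither passed in the fit to all groups. Both did with the B4-4 NA pair left out (adjusted p = 0.00838 in EDTA and 3.34e-05 in NA), when the shared spread no longer held that of the pair.

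For ITGB4 the size of the NA differences moved with the B4-4 NA library kept. B4-4 against Vector was -3.29 without B4-4 NA 2 and -2.17 without B4-4 NA 1. Addback against B4-4 was 2.55 without B4-4 NA 2 and 1.45 without B4-4 NA 1. Fitted to its 2 groups alone, B4-4 against Vector in NA did not pass (adjusted p = 0.138), nor did Addback against B4-4 in EDTA without B4-4 EDTA 1 (adjusted p = 0.0514). EDTA against NA passed for ITGB4 in no derivative, with log2 changes of 0.38 (adjusted p = 0.401) in Addback, 0.40 (adjusted p = 0.357) in B4-4 and -0.01 (adjusted p = 0.987) in Vector. The Addback value passed with the B4-4 NA pair left out, when the shared spread no longer held that of the pair. The B4-4 value had no settled direction, at 1.07 without B4-4 NA 2 and -0.05 without B4-4 NA 1.

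ITGA6, the alpha chain that pairs with beta 4, did not follow ITGB4 down in B4-4, and in EDTA it was highest there. In EDTA, ITGA6 stood at 981 and 816 CPM in Addback, 1383 and 1345 CPM in B4-4 and 899.6 and 805 CPM in Vector. In NA, ITGA6 stood at 914 and 903 CPM in Addback, 672 and 905 CPM in B4-4 and 839 and 835 CPM in Vector. B4-4 EDTA lay above every other library, and the other 5 groups each overlapped the next in the order of their means, from Addback NA through Addback EDTA, Vector EDTA and Vector NA to B4-4 NA. The mean was 1364 ± 26.9 CPM in B4-4 EDTA, against 789 ± 165 CPM in B4-4 NA and 852 ± 67.2 CPM in Vector EDTA (SD, n = 2 each). ITGA6 was higher with EDTA in B4-4, at 0.79 (SE 0.13, adjusted p = 0.00225), and higher in B4-4 than in Vector in EDTA, at 0.68 (SE 0.13, adjusted p = 0.00142). With EDTA, Addback was lower than B4-4, at -0.60 (SE 0.13, adjusted p = 0.0102), a call lost without B4-4 EDTA 1 (adjusted p = 0.0796) or B4-4 EDTA 2 (adjusted p = 0.0589). In NA, B4-4 against Vector was -0.09 (adjusted p = 0.732) and Addback against B4-4 was 0.20 (adjusted p = 0.285). The Addback against B4-4 value was 0.43 without B4-4 NA 2 and 0.02 without B4-4 NA 1.

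The ratio of ITGB4 to ITGA6 compares both chains of the heterodimer within a library, as CPM per kilobase of exon. It was 1.25 and 1.81 in Addback EDTA, 0.26 and 0.28 in B4-4 EDTA and 1.80 and 2.22 in Vector EDTA. In NA it was 1.12 and 1.16 in Addback NA, 0.262 and 0.422 in B4-4 NA and 2.04 and 2.06 in Vector NA. ITGB4 thus stood above ITGA6 per kilobase in every Addback and Vector library and below it in every B4-4 library, and the ratio in each Addback library was above each B4-4 library. Vector and Addback did not overlap in NA, but in EDTA the higher Addback library (1.81) reached the lower Vector library (1.80). The ratio of ITGA3 to ITGA6, the alpha chains of the 2 receptors, was 0.662 and 0.755 in Addback EDTA, 0.533 and 0.57 in B4-4 EDTA and 0.536 and 0.66 in Vector EDTA. In NA it was 0.968 and 0.941 in Addback NA, 0.658 and 0.68 in B4-4 NA and 0.846 and 0.843 in Vector NA. ITGA6 exceeded ITGA3 per kilobase of exon in all 12 libraries, and the ratio was lower in EDTA than in NA within each derivative without overlap. With the longest transcripts as the length, this ratio ran from 0.820 to 1.49, so which of the 2 genes stood higher depends on the length used, while the order of the libraries does not. These are ratios of RNA and hold no measure of the paired protein.

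ITGA3, the alpha chain of alpha 3 beta 1, moved with EDTA in opposite directions in the derivatives. In EDTA, ITGA3 stood at 975 and 925 CPM in Addback, 1106 and 1151 CPM in B4-4 and 724 and 797 CPM in Vector. In NA, ITGA3 stood at 1327 and 1275 CPM in Addback, 664 and 923 CPM in B4-4 and 1064 and 1056 CPM in Vector. The EDTA libraries lay below the NA libraries in Addback and in Vector and above them in B4-4, with no overlap in any of the 3. Addback NA was the highest group, followed by B4-4 EDTA, Vector NA and Addback EDTA, each apart from the next, and B4-4 NA and Vector EDTA overlapped at the bottom. ITGA3 fell with EDTA in Addback at -0.45 (SE 0.13, adjusted p = 0.0296) and in Vector at -0.48 (SE 0.13, adjusted p = 0.0247), and rose in B4-4 at 0.51 (SE 0.13, adjusted p = 0.017). Between derivatives, ITGA3 was higher in B4-4 than in Vector in EDTA at 0.57 (SE 0.13, adjusted p = 0.00343) and Addback exceeded B4-4 in NA at 0.71 (SE 0.13, adjusted p = 0.00217).

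Each of the 3 EDTA calls for ITGA3 depended on single libraries. In Addback it was lost without Addback EDTA 1, Addback EDTA 2, Addback NA 1 or Addback NA 2 (adjusted p = 0.0539, 0.14, 0.176 and 0.101 in that order). In Vector it was lost without Vector EDTA 1, Vector NA 1 or Vector NA 2 (adjusted p = 0.18, 0.131 and 0.125). In B4-4 it was lost without B4-4 EDTA 1 (adjusted p = 0.0878) or B4-4 EDTA 2 (adjusted p = 0.113), and the log2 change was 0.29 without B4-4 NA 1 and 0.77 without B4-4 NA 2. No single omission turned any of the 3 directions. With the B4-4 NA pair left out, the adjusted p was 0.000704 in Addback and 0.000434 in Vector. Addback against Vector, at 0.32 (adjusted p = 0.075) in EDTA and 0.29 (adjusted p = 0.0873) in NA, passed with that pair left out (adjusted p = 0.00348 and 0.00503). B4-4 against Vector in NA was -0.42 (adjusted p = 0.0659), and -0.68 without B4-4 NA 2 and -0.20 without B4-4 NA 1. Fitted to its 2 groups alone, Addback against B4-4 in NA did not pass (adjusted p = 0.0623).

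ITGB1, the beta chain shared by alpha 3 and, in part, alpha 6, varied least of the 7. In EDTA, ITGB1 stood at 1249 and 1606 CPM in Addback, 1891 and 1824 CPM in B4-4 and 1372 and 1146 CPM in Vector. In NA, ITGB1 stood at 1359 and 1347 CPM in Addback, 1052 and 1519 CPM in B4-4 and 1246 and 1205 CPM in Vector. Both B4-4 EDTA libraries were above every other library, and the other 5 groups overlapped their neighbours. ITGB1 was higher in B4-4 than in Vector in EDTA, at 0.56 (SE 0.16, adjusted p = 0.0154), a call lost without B4-4 EDTA 1 (adjusted p = 0.0657) or Vector EDTA 2 (adjusted p = 0.108). It was higher with EDTA in B4-4, at 0.53 (SE 0.16, adjusted p = 0.0395), and this call was lost without either Addback NA library (adjusted p = 0.0618 and 0.0619), either B4-4 EDTA library (0.165 and 0.123), B4-4 NA 1 (0.108) or either Vector NA library (0.0547 each). Its size was 0.29 without B4-4 NA 1 and 0.82 without B4-4 NA 2. The Addback libraries lay below those of B4-4 in EDTA, with a difference of -0.38 (adjusted p = 0.14). This difference passed with the B4-4 NA pair, and so its spread, left out (adjusted p = 0.0274).

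CD151, the tetraspanin partner, was lowest in Vector and showed no call for EDTA in any derivative. In EDTA, CD151 stood at 173 and 217 CPM in Addback, 234 and 254 CPM in B4-4 and 138 and 163 CPM in Vector. In NA, CD151 stood at 192 and 194 CPM in Addback, 165 and 305 CPM in B4-4 and 161 and 155 CPM in Vector. All 4 Vector libraries were below all 8 Addback and B4-4 libraries, whose 4 groups overlapped in order. CD151 was higher in B4-4 than in Vector in EDTA, at 0.69 (SE 0.23, adjusted p = 0.0364). This call was lost without Addback NA 1 or 2 (adjusted p = 0.0521 and 0.052), B4-4 EDTA 1 or 2 (0.0876 and 0.144), Vector EDTA 1 or 2 (0.19 and 0.072) or Vector NA 1 or 2 (0.0519 and 0.0518), and with upper-quartile factors (0.069). The log2 change stayed above 0 in each case, between 0.55 and 0.82. Its overlapping gene POLR2L, a subunit of RNA polymerase II, was also higher in B4-4 than in Vector in EDTA, at 0.42 (SE 0.14, adjusted p = 0.0288). POLR2L was higher than in Vector as well in B4-4 in NA, at 0.75 (adjusted p = 0.0103). In Addback it exceeded Vector by 0.64 in EDTA (adjusted p = 0.00539) and 0.59 in NA (adjusted p = 0.00666). The part of POLR2L in the CD151 counts was not tested. EDTA against NA in B4-4 was 0.05 (adjusted p = 0.895), with no settled direction: it was 0.57 without B4-4 NA 2 and -0.32 without B4-4 NA 1. The other comparisons of CD151 between derivatives ran from -0.32 for Addback over B4-4 in EDTA to 0.57 for B4-4 over Vector in NA (adjusted p = 0.396 and 0.163). The value for B4-4 over Vector in NA was 0.06 without B4-4 NA 2 and 0.95 without B4-4 NA 1. Addback over Vector passed, with the B4-4 NA pair left out, in EDTA (0.37, adjusted p = 0.0174) and in NA (0.29, adjusted p = 0.0459).

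The laminin-332 chain genes LAMA3 and LAMB3 were each highest in B4-4 EDTA, as were ITGA6 and ITGB1. Promoter stretches of the 2 laminin genes are shown as a description, and their part in the levels was not tested. RefSeq promoter windows on GRCh38.p14, from 250 bases before to 50 bases after a start, matched 4 of the 7 members: LAMB3 with 3 starts, ITGA6 and ITGB1 with 2 each and LAMA3 with 1. On both strands, 5 motifs were searched: AP-1 (TGANTCA), the TATA box (TATAAA), the GC box (GGGCGG), an E-box (CAGGTG) and the TEAD motif (GGAATG). AP-1 was in the LAMA3 window at 2 places and in 1 of the 3 LAMB3 windows, and in no ITGA6 or ITGB1 window. The GC box was found for all 4 genes and the E-box for LAMA3, LAMB3 and ITGA6. The TATA box was found for ITGA6 and ITGB1, and the TEAD motif for ITGB1. Of all 34943 windows, 7.72% held AP-1, 11.6% the TATA box, 44.9% the GC box, 20.6% the E-box and 14.0% the TEAD motif. The stretches below, read 5′ to 3′ on the strand of the gene, give AP-1 in capitals with 11 bases on each side. They lie at chr18:23872884-23872912 and chr18:23872940-23872968 on the plus strand for LAMA3 and at chr1:209651424-209651452 on the minus strand for LAMB3, and the motif begins 125 and 69 bases before the LAMA3 start and 67 bases before that LAMB3 start. Both are starts within the GENCODE gene: the LAMA3 start, at base 23873020, lies 183577 bases downstream of the gene's first base, and the LAMB3 start, at base 209651374, lies 1092 bases downstream of it. Gene counts do not show which start was used.
LAMA3 distal: ctggcacaggcTGACTCAtgtgtgaagtt
LAMA3 proximal: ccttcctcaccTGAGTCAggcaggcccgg
LAMB3: gtcagccactcTGACTCAttcactttggg
The proximal LAMA3 match overlaps an E-box on the other strand by 2 bases. A match describes letters in the window, and no binding was measured.

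LAMA3, the alpha 3 chain of laminin-332, stood at 581 and 812 CPM in Addback, 2061 and 2039.8 CPM in B4-4 and 785 and 780.5 CPM in Vector under EDTA. In NA, LAMA3 stood at 527 and 526 CPM in Addback, 536 and 897 CPM in B4-4 and 853 and 849.8 CPM in Vector. Both B4-4 EDTA libraries were above every other library by more than the whole range of the others, Vector NA lay just above Vector EDTA, and Addback NA was lowest of the groups without overlap with Addback EDTA. LAMA3 was higher with EDTA in B4-4 at 1.52 (SE 0.21, adjusted p = 0.00144) and higher in B4-4 than in Vector in EDTA at 1.39 (SE 0.21, adjusted p = 0.000532), and lower in Addback than in B4-4 in EDTA at -1.56 (SE 0.21, adjusted p = 0.00115). Each of these 3 calls held whichever library was left out. LAMA3 was also lower in Addback than in Vector in NA, at -0.69 (SE 0.21, adjusted p = 0.0252), the only Addback against Vector call among the members. It was lost without Addback NA 1 or 2 (adjusted p = 0.112 and 0.107) or Vector NA 1 or 2 (0.0859 and 0.0828), and was 0.00063 with the B4-4 NA pair left out. B4-4 against Vector in NA was -0.25 (adjusted p = 0.495) with no settled direction, at -0.67 without B4-4 NA 2 and 0.07 without B4-4 NA 1.

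LAMB3, the beta 3 chain, had the widest range across libraries after ITGB4. In EDTA, LAMB3 stood at 629 and 689.6 CPM in Addback, 2292 and 2518 CPM in B4-4 and 422 and 473 CPM in Vector. In NA, LAMB3 stood at 592 and 570.4 CPM in Addback, 539 and 1295 CPM in B4-4 and 879.8 and 880.2 CPM in Vector. B4-4 EDTA was again above every other library, the B4-4 NA libraries lay on both sides of the Vector NA libraries, and Vector EDTA was below every other library. In EDTA, LAMB3 averaged 2405 ± 159 CPM in B4-4 and 448 ± 36.1 CPM in Vector (SD, n = 2 each), a 5.37-fold difference with a log2 change of 2.43 (SE 0.34, adjusted p = 0.000837), which held whichever library was left out. It was higher with EDTA in B4-4, at 1.39 (SE 0.33, adjusted p = 0.0236), a call lost without B4-4 EDTA 1 (adjusted p = 0.0977) or 2 (0.113) and with no filter (0.0808). That value was 0.89 without B4-4 NA 1 and 2.16 without B4-4 NA 2. Addback was lower than B4-4 in EDTA, at -1.87 (SE 0.33, adjusted p = 0.00955), lost without Addback EDTA 1 (0.0809) or B4-4 EDTA 2 (0.0587).

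In Vector, both EDTA libraries lay below both NA libraries for LAMB3, but the log2 change of -0.97 (SE 0.33, adjusted p = 0.0845) did not pass. It passed in DESeq2 (adjusted p = 0.0386) and in limma voom with quality weights (0.00363). It also passed with the B4-4 NA pair left out (6.2e-06) and when fitted to the 2 groups alone (5.17e-05), fits whose spread does not hold that of the pair. LAMB3 in B4-4 against Vector in NA had no settled direction, at 0.06 (adjusted p = 0.934): it was 0.55 without B4-4 NA 1 and -0.71 without B4-4 NA 2. Addback against Vector was 0.56 (adjusted p = 0.233) in EDTA and -0.60 (adjusted p = 0.188) in NA. With the B4-4 NA pair left out both passed (adjusted p = 0.000189 in EDTA and 8.14e-05 in NA), so that LAMB3 in Addback was then above Vector in EDTA and below it in NA.

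Per kilobase of exon, the ratio of LAMB3 to LAMA3 was 3.39 and 2.66 in Addback EDTA, 3.48 and 3.86 in B4-4 EDTA and 1.68 and 1.90 in Vector EDTA. In NA it was 3.52 and 3.39 in Addback NA, 3.14 and 4.52 in B4-4 NA and 3.23 and 3.24 in Vector NA. The 2 Vector EDTA libraries had the lowest ratios of the 12, and the other 10 lay between 2.66 and 4.52. In B4-4 EDTA, where both chain genes were highest, the ratio lay within the range of the Addback and B4-4 NA libraries.

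**Figure D2:**
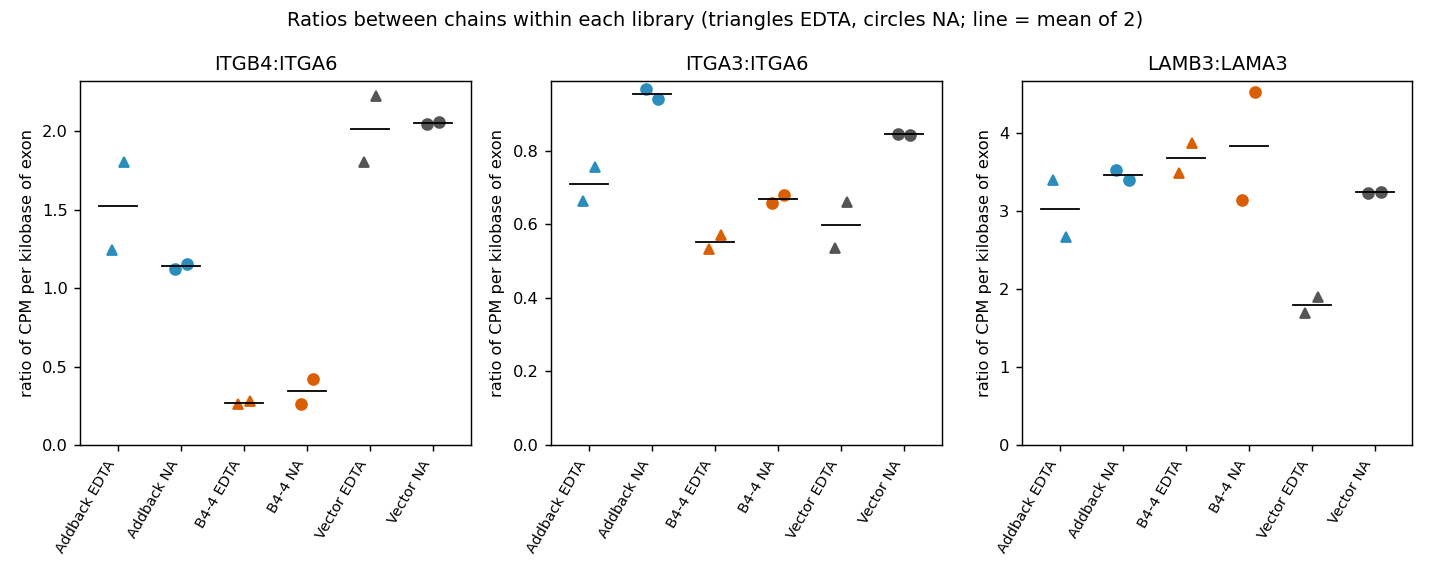
Ratios between chain genes within each library, as CPM per kilobase of exon, with EDTA groups as triangles, NA groups as circles and a line at the mean of 2 libraries. The ITGB4 to ITGA6 ratio is below 1 in the 4 B4-4 libraries and above 1 in the other 8, and the LAMB3 to LAMA3 ratio is lowest in the 2 Vector EDTA libraries (1.68 and 1.90).

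EDTA against NA compares the treatment labels within each derivative. The 12 comparisons share libraries, so their values are set side by side and no likeness between them is drawn. In Addback, 0 members rose and 1 fell, ITGA3, where 8.64% of all tested genes rose and 8.29% fell (16.9% in either direction). In B4-4, 5 of 7 members rose and 0 fell, where 9.88% of all tested genes rose and 10.0% fell (19.9% in either direction). In Vector, 0 members rose and 1 fell, again ITGA3, where 6.36% of all tested genes rose and 8.98% fell (15.3% in either direction). The 5 that rose in B4-4 were ITGA6, ITGA3, ITGB1, LAMA3 and LAMB3, and the median log2 change of the 7 was 0.53 in B4-4, beside -0.01 over all genes tested. In Addback and Vector the medians of the 7 were 0.08 and -0.07, beside 0.01 and 0.00 over all genes. Fitted to the 2 B4-4 groups alone, none of the 5 passed (adjusted p = 0.0559 for LAMA3, 0.0671 for ITGA6, 0.106 for LAMB3, 0.144 for ITGA3 and 0.151 for ITGB1), and upper-quartile factors ended the call of ITGB1 (0.0597). Of all genes called in B4-4, 49.59% were higher, and 36.77% with upper-quartile factors. With the B4-4 NA pair left out, ITGB4 and LAMA3 also passed as higher with EDTA in Addback (adjusted p = 0.00699 and 0.0256). Basal-like markers summed to 14505 to 15378 CPM in B4-4 EDTA, against 11284 to 11851 CPM in B4-4 NA, and their part in the result was not tested.

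**Figure D3:**
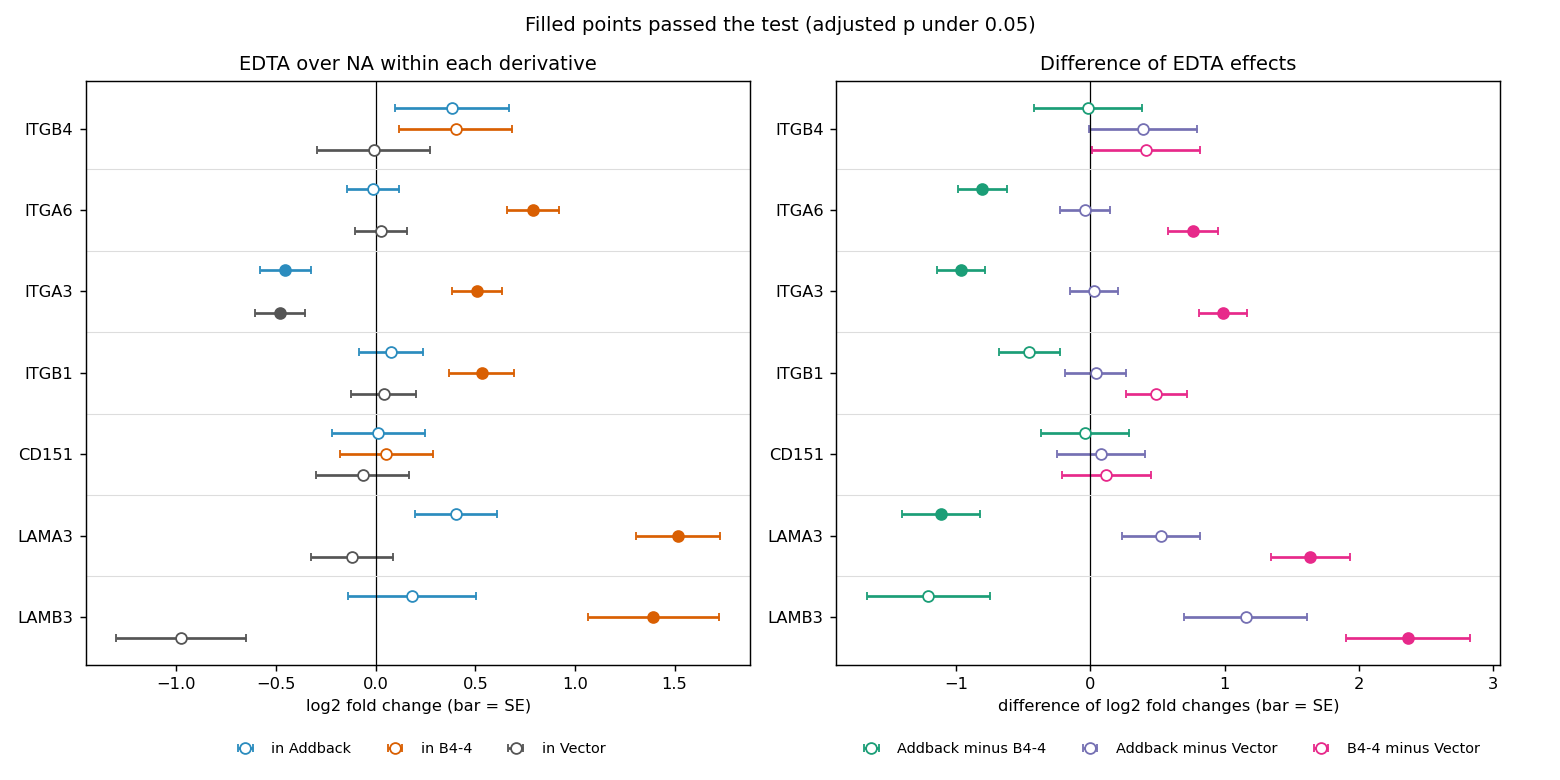
Log2 fold changes of EDTA over NA within each derivative (left) and differences of these EDTA effects between derivatives (right) for the 7 members, with bars of 1 SE and filled points where the adjusted p was under 0.05. The B4-4 effects of ITGA6, ITGA3, ITGB1, LAMA3 and LAMB3 are filled and above 0, while the filled points of Addback and Vector are those of ITGA3 below 0.

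B4-4 against Vector asks how the derivative with low ITGB4 differed from Vector. In EDTA all 7 members were called, 6 higher (ITGA6, ITGA3, ITGB1, CD151, LAMA3 and LAMB3) and 1 lower (ITGB4), where 43.4% of all tested genes were called, 22.9% higher and 20.4% lower. The median log2 change of the 7 was 0.68, beside 0.00 over all genes. With the B4-4 NA pair left out, 7 of 7 were again called, and leaving out any single library left 5 to 7. In NA, 1 member was called, ITGB4, lower, where 7.16% of all tested genes were called, 3.38% higher and 3.78% lower, and the median of the 7 was -0.09, beside 0.02 over all genes. The NA count was 1 to 4 when single libraries were left out, with LAMB3 called in opposite directions without B4-4 NA 1 and without B4-4 NA 2. Marker lists of other cell types were low in both: in EDTA the fibroblast list summed to 14.1 to 14.7 CPM in B4-4 and 28.40 to 29.03 CPM in Vector, and the endothelial list, of which PECAM1 alone was tested and CDH5 was at 0 in all libraries, to 3.41 to 3.67 CPM in B4-4 and 23.3 to 25.1 CPM in Vector. The immune list summed to 7.08 to 8.04 CPM in B4-4 EDTA and 9.17 to 9.88 CPM in Vector EDTA, with CD3E and LYZ at 0 in all libraries. Basal-like markers summed to 14505 to 15378 CPM in B4-4 EDTA and 9981 to 10435 CPM in Vector EDTA, and to 11284 to 11851 CPM in B4-4 NA and 14400.3 to 14506 CPM in Vector NA. Their part in the results was not tested.

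Addback against B4-4 asks which of these differences the Addback derivative lacked. In EDTA, 1 member was higher in Addback (ITGB4) and 3 were lower (ITGA6, LAMA3 and LAMB3), where 14.1% of all tested genes were called, 6.54% higher and 7.54% lower. The other 3 were also below B4-4 in their estimates but did not pass: ITGA3 at -0.25 (adjusted p = 0.215), ITGB1 at -0.38 (adjusted p = 0.14) and CD151 at -0.32 (adjusted p = 0.396). With the B4-4 NA pair left out all 7 passed in EDTA, these 3 at adjusted p = 0.0231, 0.0274 and 0.0468. The share of all genes called in that fit is not given. In NA, 2 members were higher in Addback (ITGB4 and ITGA3) and 0 lower, where 23.6% of all tested genes were called, 11.3% higher and 12.3% lower. LAMB3 and LAMA3 in NA were -0.66 (adjusted p = 0.184) and -0.44 (adjusted p = 0.149), and CD151 was -0.28 (adjusted p = 0.414). These 3 values depended on which library of the B4-4 NA pair was kept, and 2 of them turned. LAMB3 was 0.10 without B4-4 NA 2 and -1.14 without B4-4 NA 1. LAMA3 was -0.03 without B4-4 NA 2 (adjusted p = 0.898) and -0.75 without B4-4 NA 1 (adjusted p = 0.00129), and CD151 was 0.22 without B4-4 NA 2 (adjusted p = 0.263) and -0.65 without B4-4 NA 1 (adjusted p = 0.00235). In EDTA, basal-like markers summed to 9819.7 to 10846 CPM in Addback, against 14505 to 15378 CPM in B4-4, the fibroblast list to 34.7 to 65.5 CPM in Addback, against 14.1 to 14.7 CPM in B4-4, the endothelial list to 12.2 to 34.7 CPM, against 3.41 to 3.67 CPM, and the immune list to 8.64 to 35.3 CPM, against 7.08 to 8.04 CPM. In NA, the basal-like sum was 8864 to 9264 CPM in Addback, against 11284 to 11851 CPM in B4-4, and the immune sum 47.5 to 54.7 CPM, against 12.26 to 13.78 CPM. Their part in the results was not tested.

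Addback against Vector asks how far the Addback derivative lay from Vector. In EDTA, 0 of 7 members were called, where 30.0% of all tested genes were called, 16.1% higher and 14.0% lower. The values nearest to a call were ITGA3 at 0.32 (adjusted p = 0.075) and LAMB3 at 0.56 (adjusted p = 0.233), and at an unadjusted p under 0.05 edgeR's test had 1 member. DESeq2 called 0 as well. With the B4-4 NA pair left out 4 passed (ITGB4, ITGA3, CD151 and LAMB3), and LAMA3, ITGA6 and ITGB1 did not, at -0.17, 0.08 and 0.18. In NA, 1 member was called, LAMA3, lower, where 36.1% of all tested genes were called, 17.9% higher and 18.1% lower. This count was 5 with the B4-4 NA pair left out, 5 in limma voom with quality weights, 7 when fitted to the 2 groups alone and 2 with the replicate number as a block. Calls over all genes also rose in limma voom and in the 2 groups alone, with values at the end, so these rises are not particular to the members. Basal-like markers summed to 8864 to 9264 CPM in Addback NA, against 14400.3 to 14506 CPM in Vector NA, and to 9819.7 to 10846 CPM in Addback EDTA, against 9981 to 10435 CPM in Vector EDTA. The fibroblast list summed to 45.9 to 47.1 CPM in Addback NA, against 15.2 to 16.1 CPM in Vector NA, and to 34.7 to 65.5 CPM in Addback EDTA, against 28.40 to 29.03 CPM in Vector EDTA, and the immune list to 47.5 to 54.7 CPM in Addback NA, against 13.1 to 14.1 CPM in Vector NA. Their part in the results was not tested.

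**Figure D4:**
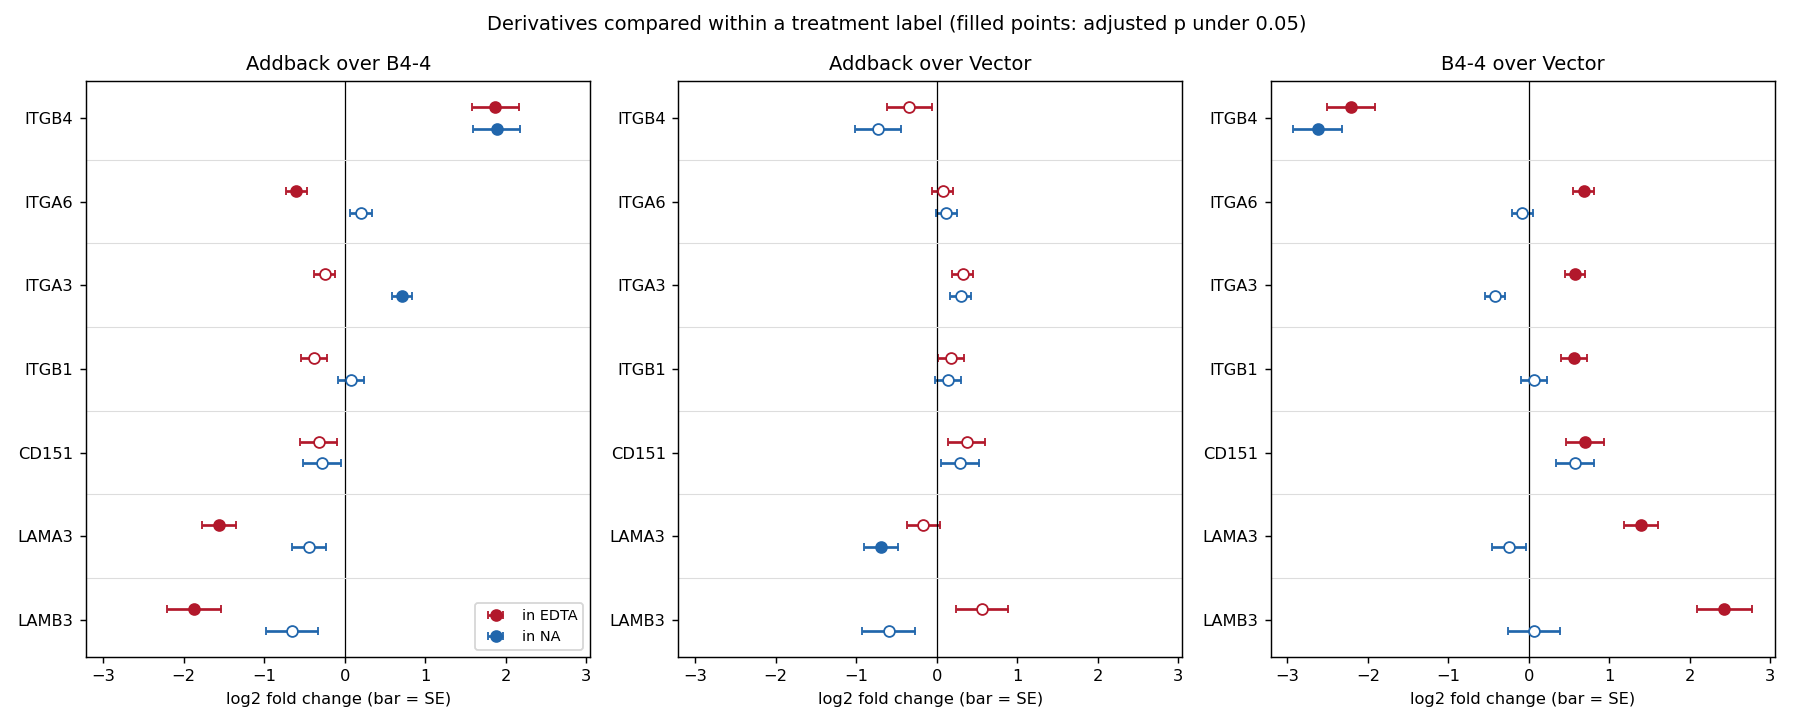
Log2 fold changes between derivatives within EDTA and within NA for the 7 members, with bars of 1 SE and filled points where the adjusted p was under 0.05. In B4-4 over Vector all EDTA points are filled, ITGB4 below 0 and the other 6 above it, while in NA the ITGB4 point alone is filled, and in Addback over Vector 1 point is filled, LAMA3 in NA.

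Whether the EDTA effect, here the log2 change of EDTA over NA, differed between derivatives was tested directly. The test took the EDTA effect in a derivative minus that in another. B4-4 differed from Vector for 4 of 7 members, all with the larger effect in B4-4, where 27.0% of all tested genes were called, 14.4% higher and 12.6% lower. These were LAMB3 at 2.37 (SE 0.46, adjusted p = 0.00794), LAMA3 at 1.64 (SE 0.29, adjusted p = 0.00302), ITGA3 at 0.99 (SE 0.18, adjusted p = 0.00214) and ITGA6 at 0.76 (SE 0.19, adjusted p = 0.0102), and each held whichever library was left out, LAMB3 at 3.14 without B4-4 NA 2 and 1.86 without B4-4 NA 1. ITGB1 at 0.49 (adjusted p = 0.131), ITGB4 at 0.41 (adjusted p = 0.49) and CD151 at 0.12 (adjusted p = 0.818) did not pass, and their values depended on which library of the B4-4 NA pair was kept. ITGB1 was 0.79 without B4-4 NA 2 and 0.25 without B4-4 NA 1. ITGB4 was 1.08 without B4-4 NA 2 and -0.05 without B4-4 NA 1, and CD151 was 0.64 without B4-4 NA 2 and -0.26 without B4-4 NA 1. Of all genes called in this difference 53.38% were higher, and 41.96% with upper-quartile factors, which moved the median of all genes to -0.12; the 4 members were called with those factors too.

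Addback differed from B4-4 in its EDTA effect for 3 of 7 members, all lower in Addback, where 8.78% of all tested genes were called, 4.22% higher and 4.57% lower. ITGA3 was at -0.96 (SE 0.18, adjusted p = 0.0072) and held whichever library was left out. ITGA6 was at -0.81 (SE 0.19, adjusted p = 0.0199), lost without Addback NA 1 or 2 (adjusted p = 0.0851 and 0.062) or B4-4 EDTA 1 or 2 (0.0827 and 0.0618), and in the fit of the 4 groups alone (0.0653). LAMA3 was at -1.11 (SE 0.29, adjusted p = 0.0426), and was lost without Addback EDTA 1 (0.0912), Addback NA 1 or 2 (0.142 and 0.11), B4-4 EDTA 1 or 2 (0.118 and 0.105), any of the 4 Vector libraries (0.0612 to 0.0622) and in the fit of the 4 groups alone (0.0993). LAMB3, at -1.21 (adjusted p = 0.145), was -0.72 without B4-4 NA 1 and -1.98 without B4-4 NA 2. ITGB1, at -0.45 (adjusted p = 0.236), was -0.74 without B4-4 NA 2 and -0.22 without B4-4 NA 1. Addback and Vector differed for 0 of 7 in edgeR's test (1 at an unadjusted p under 0.05) and for 0 in DESeq2, where edgeR called 24.2% of all tested genes, 13.4% higher and 10.8% lower. LAMB3 came nearest at 1.16 (adjusted p = 0.108), and with the B4-4 NA pair left out LAMB3 (1.39e-05), ITGB4 (0.0272) and LAMA3 (0.0304) passed.

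Other genes of the same biology were read from 6 lists, as a description beside the members. Among hemidesmosome plaque and anchoring genes, all 6 were tested, and in B4-4 over Vector in EDTA 3 were higher and 0 lower, where 22.9% of all tested genes were higher and 20.4% lower, with a median log2 change of 0.40 beside 0.00 over all genes. They were COL7A1, the anchoring fibril collagen, at 1.22 (SE 0.13, adjusted p = 2.13e-05), PLEC, which links beta 4 to keratin filaments, at 0.80 (SE 0.11, adjusted p = 0.000138), and COL17A1, a transmembrane collagen that binds beta 4, at 0.59 (SE 0.08, adjusted p = 0.000155). COL7A1 stood at 97.9 and 110.2 CPM in B4-4 EDTA and at 40.9 and 48.6 CPM in Vector EDTA. For EDTA within B4-4 the same 3 genes rose and 0 fell, where 9.88% of all tested genes rose and 10.0% fell. By the test of the difference, 5 of the 6 had a larger EDTA effect in B4-4 than in Vector. In that test 14.4% of all tested genes were higher and 12.6% lower, and PLEC was at 1.36 (SE 0.15, adjusted p = 0.000109). In B4-4 over Vector in NA, 0 were higher and 4 lower, where 3.38% of all tested genes were higher and 3.78% lower. KRT5 and KRT14 stand on this list and among the basal-like markers.

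Of 16 other laminin chain and receptor genes 13 were tested, and in B4-4 over Vector in EDTA 3 were higher and 2 lower, near the 22.9% and 20.4% of all tested genes, with a median log2 change of 0.10 beside 0.00. RPSA, a ribosomal protein also described as a laminin receptor, was lower at -0.48 (SE 0.09, adjusted p = 0.00156). LAMB1, the beta 1 chain found in several other laminins, was lower at -1.64 (SE 0.08, adjusted p = 1.25e-07). It stood at 339.6 and 330.2 CPM in B4-4 EDTA and at 1028 and 1063 CPM in Vector EDTA, the opposite order to LAMB3. EDTA against NA went in opposite directions for LAMB1 too, at -0.53 in B4-4 (SE 0.08, adjusted p = 0.00124) and 0.53 in Vector (SE 0.08, adjusted p = 0.00104). The difference of EDTA effects was -1.07 (SE 0.11, adjusted p = 6.92e-05). A lower level was also found in Addback over Vector, at -1.43 (SE 0.08, adjusted p = 8.34e-07) in EDTA. These RPSA and LAMB1 calls held whichever library was left out.

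Of 12 genes that process laminin-332 or share its basement membrane, 10 were tested, and in B4-4 over Vector in EDTA 6 were higher and 2 lower, beside the same shares of all genes, with a median of 0.66. AGRN, the heparan sulphate proteoglycan agrin, was at 0.93 (SE 0.12, adjusted p = 8.05e-05), MMP14, a membrane protease that can cut laminin-332, at 0.86 (SE 0.16, adjusted p = 0.00152), and COL4A1, a type IV collagen chain, at 0.97 (SE 0.19, adjusted p = 0.00185). Among 21 integrin adaptors 19 were tested, with 11 higher and 2 lower and a median of 0.60. TNS4, a tensin that binds beta 1 tails, was at 1.22 (SE 0.08, adjusted p = 1.1e-06), BCAR1, a docking protein of focal adhesions, at 1.24 (SE 0.10, adjusted p = 5.03e-06), and FERMT1, which encodes kindlin-1, an integrin activator of epithelia, at 1.10 (SE 0.14, adjusted p = 6.8e-05). Of 15 other integrin chains 11 were tested, with 6 higher and 1 lower and a median of 0.63: the collagen-binding chain ITGA2 was at 0.85 (SE 0.10, adjusted p = 6.2e-05), ITGA10, also collagen-binding, at -3.18 (SE 0.19, adjusted p = 5.35e-07), and the scarce ITGA4, at most 6.31 CPM in any library, at 2.80 (SE 0.41, adjusted p = 0.000247). All 8 tetraspanins listed were tested, and edgeR called 0 of them (2 at an unadjusted p under 0.05, and 1 called by DESeq2), with a median of 0.05. The calls named in the sentences above held whichever library was left out.

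For EDTA within B4-4, where 9.88% of all tested genes rose and 10.0% fell, the adaptors had 10 higher and 1 lower, the other integrins 5 higher and 1 lower, the processing list 3 higher and 0 lower, the other laminin genes 2 higher and 2 lower and the tetraspanins 0 higher and 1 lower. For EDTA within Vector, where 6.36% rose and 8.98% fell, the same lists had 2 higher and 2 lower, 1 higher and 0 lower, 2 higher and 1 lower, 1 higher and 4 lower, and 0 of either, and the hemidesmosome list 0 higher and 2 lower. TNS4 went in opposite directions, at 0.84 (SE 0.08, adjusted p = 8.41e-05) in B4-4 and -0.86 (SE 0.08, adjusted p = 6.88e-05) in Vector, with a difference of EDTA effects of 1.70 (SE 0.12, adjusted p = 4.05e-06). In Addback it rose as in B4-4, at 1.01 (SE 0.08, adjusted p = 3.54e-05), whereas ITGA2 rose in B4-4 at 1.14 (SE 0.10, adjusted p = 5.03e-05) and fell in Addback at -0.65 (SE 0.10, adjusted p = 0.00154). ITGA2 stood at 331 and 322 CPM in B4-4 EDTA, against 151 and 146 CPM in B4-4 NA, and at 151 and 168 CPM in Addback EDTA, against 271 and 232 CPM in Addback NA. Its difference of EDTA effects, Addback minus B4-4, was -1.79 (SE 0.15, adjusted p = 3.32e-05), the same sign as those of ITGA6, ITGA3 and LAMA3.

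Across the 12 libraries, with log2 CPM compared over 10498 genes, the genes whose pattern was most like a member differed from member to member, and all points share the 6 groups, so these values are descriptions. LAMB3 was like SPHK1 (Pearson r = 0.9713) and STEAP1 (0.9703), and LAMA3 was most like DAAM1 (0.9729), ARCN1 (0.9535) and LETM2 (0.9427). ITGA6 was most like CAPN2 (0.9372), NT5E (0.9364) and CNN2 (0.9212), ITGB1 like CFAP251 (0.9496), CALU (0.9478) and KPNA4 (0.9467), and ITGA3 like MYOSLID (0.9043), CAMK2N1 (0.8952) and ATXN7L3B (0.8903). CD151 was most like MGAT4B (0.9838), CTSZ (0.9829) and MGAT1 (0.9544), and ITGB4 like PYGB (0.9363), HAX1 (0.9065) and TSEN15 (0.9025). Among the members themselves, r was 0.882 for LAMA3 with LAMB3 and 0.839 for ITGA6 with ITGB1, and -0.249 for ITGB4 with its partner ITGA6.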

How the data were processed

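Per the labels' protocols, libraries were stranded, made by poly(A) selection from 250 ng of total RNA with inserts of 300 bp, and read as 150 bp pairs. The table deposited by the authors holds raw whole-number counts for each gene. The submitters' processing notes name TopHat2 2.1.1, SAMtools 1.4.1 and featureCounts 1.5.3 and the builds GRCh38, hg19 and hg38, with no role for each. No source used here gives the annotation release, the strand setting or the treatment of reads that map to several places.

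In R 4.3.3, edgeR 4.0.16 was run with filterByExpr, TMM factors and a robust quasi-likelihood fit of 6 group means to all 12 libraries, so that the groups share an estimate of the spread. The 12 contrasts were adjusted by Benjamini-Hochberg over 15749 genes (threshold 0.05), and the SE is the log2 change divided by the square root of F. The procedure was run on simulated counts in which a gene had the same dispersion in every group. That simulation does not cover the unequal spread of the groups here. Library pairs of a group differed by a chi-square per degree of freedom of 2.82 to 58.65, more than read sampling alone would give. Whether the libraries of a pair came from separate cultures or from the same RNA cannot be told from this. Alternatives were upper-quartile and RLE factors, no filter, the replicate number as a block, the groups of a contrast alone, DESeq2 1.42.0, limma 3.58.1 voom with quality weights, and leaving out each library; leaving out both B4-4 NA libraries was chosen after seeing the data. Ratios use the union of exons in GENCODE release 29, and the longest transcript as an alternative, which changes each ratio by a constant factor. Motifs were searched in RefSeq promoter windows of GRCh38.p14.

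All 7 members are named in every comparison. For likeness, the 3 genes with the highest Pearson r on log2(CPM + 0.5) and a mean of at least 5 CPM were taken per member, and 1 of those for LAMB3 is not reported here. From each of 6 lists, up to 3 called genes with the smallest p per contrast qualified for naming. The 5 marker lists cover basal-like, luminal, fibroblast, endothelial and immune cells. The fibroblast list, with 4 of 7 tested, summed to 14.1 to 65.5 CPM over the 12 libraries. Members and lists were chosen with earlier results of these data known.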

Additional observations from a re-analysis of the deposited data

Results flagged for a closer look

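For 4 members the effect of EDTA differed between B4-4 and Vector by a test of the difference itself: the effect in B4-4 minus that in Vector, in log2, was 2.37 for LAMB3, 1.64 for LAMA3, 0.99 for ITGA3 and 0.76 for ITGA6. ITGA3 is the one whose EDTA libraries were called higher in B4-4 and called lower in Vector. For 3 members the effect of EDTA differed between Addback and B4-4: the effect in Addback minus that in B4-4 was -0.81 for ITGA6, -0.96 for ITGA3 and -1.11 for LAMA3. All 7 differences use the B4-4 NA pair, whose libraries lay 1.35-fold (ITGA6), 1.39-fold (ITGA3), 1.67-fold (LAMA3) and 2.40-fold (LAMB3) apart. What made them differ was not tested.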

How the results depend on the processing

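RLE factors changed none of the 84 member results and DESeq2, upper-quartile factors and the replicate block changed 2, 2 and 1 of them. The number of members called moved most where B4-4 NA or the shared spread entered. Calls over all genes moved too where they are given below, so these counts are not results about the members. Fitted to the groups of a contrast alone, it was 0 for EDTA in B4-4 (5 in the fit to all groups), 0 for B4-4 over Vector in NA (1), 1 for Addback over B4-4 in NA (2), 1 for the EDTA difference of Addback and B4-4 (3), 2 for EDTA in Vector (1), 7 for Addback over Vector in NA (1), 1 for Addback over Vector in EDTA (0) and 2 for the EDTA difference of Addback and Vector (0). With limma voom it was 2 for EDTA in Vector, 2 for B4-4 over Vector in NA, 5 and 1 for Addback over Vector in NA and EDTA, and 2 for the EDTA difference of Addback and Vector. DESeq2 gave 2 for EDTA in Vector and 2 for B4-4 over Vector in NA. No filter gave 2 for EDTA in Addback, 3 for B4-4 over Vector in NA, 1 for Addback over Vector in EDTA and 1 for the EDTA difference of Addback and Vector. With both B4-4 NA libraries left out, an alternative chosen after seeing the data, it was 2 for EDTA in Vector, 3 for EDTA in Addback, 7 for Addback over B4-4 in EDTA, 5 and 4 for Addback over Vector in NA and EDTA, and 3 for the EDTA difference of Addback and Vector.

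Leaving out each library gave 0 to 2 members for EDTA in Vector, 2 to 7 in B4-4 and 0 to 3 in Addback, 1 to 4 for B4-4 over Vector in NA and 5 to 7 in EDTA, 2 to 5 for Addback over B4-4 in NA and 2 to 7 in EDTA, 0 to 5 for Addback over Vector in NA and 0 to 4 in EDTA, and 4 to 7, 0 to 3 and 1 to 6 for the EDTA differences of B4-4 and Vector, Addback and Vector, and Addback and B4-4. The shares of all tested genes called in these omissions are not given, so these counts are not results about the members. Estimates changed sign in 37 of the omissions, over 27 of the 84 member results, none of them called with all libraries. In 2 of these the turned value passed: LAMB3 in B4-4 over Vector in NA, at -0.71 without B4-4 NA 2 and 0.55 without B4-4 NA 1, and ITGB4 in the EDTA difference of Addback and B4-4, at 0.43 without B4-4 NA 1 and -0.68 without B4-4 NA 2, against -0.02 with all libraries. Each of these 2 fits leaves 1 library in B4-4 NA. The causes were not tested.

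Over all genes, the calls of the contrast alone were 6 for B4-4 over Vector in NA, where the fit to all groups gave 1128, limma voom 618 and no filter 1874. They were 291 for EDTA in B4-4 (3138, limma voom 1746), 4672 for EDTA in Vector (2416, limma voom 4907), 1290 for Addback over B4-4 in NA (3723, limma voom 1962), 9318 for Addback over Vector in NA (5681, limma voom 9353) and 641 for the EDTA difference of Addback and B4-4 (1383, no filter 2103). Over 15 group pairs, the deviations of same-numbered libraries had r from -0.175 to 0.331, the highest for B4-4 EDTA with Vector EDTA. Whether same-numbered libraries share a culture or batch cannot be told from these values. The replicate block brought ITGB4 in Addback over Vector in NA to an adjusted p of 0.0454 and that count to 2, and moved no other member call. With 2 libraries a group, member changes that miss the threshold are not shown to be absent.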
